A study of Mus musculus with 60 samples.

Results

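Cytosolic ribosomal protein genes were taken as the protein-coding genes whose Gencode symbol on GRCm38 begins with Rpl or Rps and a number, or is Rpsa, Rplp0, Rplp1, Rplp2 or Fau, without the Rps6k kinase genes. The rule gave 93 of the 46480 genes counted, and 85 of them passed the count limit for testing (more than 10 counts in at least 2 samples). Of the 93 genes, 78 name subunits of the ribosome, 43 of the large subunit, 32 of the small subunit and 3 of the stalk. The other 15 were 7 paralogs, 7 processed copies annotated as coding, and Rps19bp1, a binding protein of Rps19 that is not a ribosomal protein. A further 258 Rpl and Rps pseudogenes were not members, and they took 0.00514% to 0.00765% of counted fragments in a sample.

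The ribosome translates mRNA into protein and is built from ribosomal RNA and one copy of most of these proteins. Small subunit proteins line the path on which mRNA is decoded, large subunit proteins surround the centre where the peptide bond is made, and the stalk proteins Rplp0, Rplp1 and Rplp2 recruit translation factors. In mammals most of these mRNAs begin with a C followed by a tract of C and T, the 5′ terminal oligopyrimidine (TOP) motif, through which mTOR signaling and Larp1 control their translation as one group.

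The data were RNA-Seq libraries of total RNA from the dentate gyrus (DG) of male C57BL6J mice aged 80 days, with 5 samples for each combination of region (dorsal or ventral) and housing (SH or EE), 4 groups in all. Mice were weaned on day 22 into standard housing (SH, cages of 3 males) or an enriched environment (EE, 12 males in a large cage with toys and running wheels). Dorsal and ventral tissue was punched separately from frozen sections, and each sample pooled several mice. A replicate number within a housing is taken to stand for one set of mice punched in both regions, called a pool here. SH replicate 3 was left out of group values because Xist, a transcript of female cells, was at 34.3 and 11.9 CPM (counts scaled to library size) in its dorsal and ventral samples and at most 0.652 in the others, so that 18 samples from 9 pools remained (4 of SH, 5 of EE). These are bulk samples, in which fewer cells of a type and less RNA per cell cannot be told apart. The 18 libraries held 22919364 to 28301861 fragments counted on genes. All 5 granule cell markers looked at (Prox1, Calb1, Dsp, C1ql2, Lct) were detected in each group and were higher in dorsal DG, and their summed level was 991 to 1181 CPM in dorsal and 442 to 660.2 CPM in ventral samples. The paper lists Lct among genes skewed to dorsal granule cells, so this sum does not measure granule cell content alone.

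RefSeq lists promoter sequence (GRCm38.p6) for 67 of the 93 genes. The 30 bases around the listed start of 6 of them are shown because they carry the start of the mRNA, where a TOP tract would lie, for genes from both ends of the dorsal to ventral order and for the markers Rps6 and Rplp0. The first 15 bases lie before the listed start and the other 15 begin with it, and capitals mark the longest run of C and T on the gene's strand.
Rps6 (chr4:86857353-86857382, minus strand): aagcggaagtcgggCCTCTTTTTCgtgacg
Rpl38 (chr11:114668565-114668594, plus strand): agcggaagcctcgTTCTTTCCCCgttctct
Rpl39 (chrX:37085208-37085237, minus strand): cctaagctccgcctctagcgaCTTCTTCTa
Rpl4 (chr9:64173372-64173401, plus strand): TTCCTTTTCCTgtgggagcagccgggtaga
Rplp0 (chr5:115559452-115559481, plus strand): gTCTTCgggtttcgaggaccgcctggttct
Rpl41 (chr10:128549154-128549183, minus strand): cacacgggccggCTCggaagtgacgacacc
In Rps6 and Rpl38 a run of 10 bases crossed the listed start, while in Rpl4 a run of 11 bases began at the upstream edge of the window and in Rpl41 the longest run was 3 bases. A run of at least 7 bases was found in 32 of the 67 genes (47.8%) and in 18.5% of the 27025 symbols with a listed start. Among tested members the median log2 difference between dorsal and ventral DG was -0.14 in the 31 with such a run and -0.13 in the 33 without. The match is to these letters only, and a listed start may lie some bases from the one used in DG.

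Levels were compared between genes per transcript length, as TPM rescaled so that protein-coding genes sum to the usual TPM total, because only 12.5% to 23.7% of the deposited TPM was on coding genes and much of the rest on the short RNAs Rn7s1, Rn7s2 and Rn7sk. On this scale the 93 genes together took 8.11% to 11.0% of the coding total in a sample, although they took only 1.54% to 2.19% of fragments. The level of a single tested member ranged from 44.3 to 3228, with a median of 943. The highest were Rplp1 (3228), a stalk protein, Rps27 (3061) and Rps29 (2774), followed by Rpl41 (2706), which encodes the shortest ribosomal protein. The lowest tested members were Rps27rt (44.3), Rps19bp1 (45.6) and Rpl7l1 (47.0). The stalk genes Rplp2 and Rplp0 stood at 919 and 709. Rpl3, which lies at the peptide bond centre, reached 1484, Rps6, a target of S6 kinase, reached 1037, and Rpsa, the laminin receptor protein of the small subunit, reached 747. Fau and Rps27a, both made as fusions with a ubiquitin-like domain or ubiquitin, were at 1109.8 and 958. These are means of the 18 samples.

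Of the 4 tested paralogs, 3 lay below the genes they resemble, and Rpl22l1 lay above, at 448 beside 331 for Rpl22. Rpl36al stood at 422 beside 648 for Rpl36a, Rps27l at 76.4 beside 3061 for Rps27, and Rpl7l1 at 47.0 beside 976 for Rpl7. The 3 other paralogs were hardly counted: Rpl3l, which replaces Rpl3 in striated muscle, had 64 counts in all 18 libraries, Rpl39l had 27 and Rpl10l, a testis gene, had 0. Each of these had at most 7 counts in a library, so their level in DG was not detectable beyond that at this depth. The other untested genes were copies: Rpl36a-ps1 had 18 counts in all, Rps12-ps3 had 6, Rpl9-ps1 had 1, Rpl36-ps4 had 0 and Rpl10-ps3 had 21.

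For a few members the way fragments were counted set the value. Rpl24 (chr16:55966275-55971435) overlaps the transcript Gm28037 (chr16:55966343-55980721) on the same strand, and a fragment that fits both genes is left uncounted. It had 134 unique counts over 18 libraries but 70888 expected counts, 3395 to 4946 per library, and a level of 777, so its unique counts do not measure its expression. Rps6 had 63014 unique and 138550 expected counts. Rps27rt and Rpl9-ps6, retrotransposed copies of Rps27 and Rpl9, had 193 and 597 unique counts against 1741 and 6188 expected counts, and their values are uncertain. Rps12-ps3 and Rpl10-ps3, at 34.4 and 41.2 on the rescaled scale, had 2118 and 4453 expected counts beside the 6 and 21 unique counts above.

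The 75 subunit genes whose expected counts were under 2 times their unique counts moved together from library to library. The deviations of a gene from its group mean (log2 CPM after TMM) correlated with the mean deviation of the other subunit genes at a median r of 0.98, and the mean correlation over pairs of them was 0.94, against 0.00089 over pairs of all 17040 tested genes. These are correlations over the 18 libraries, which share library preparation and depth. In the mean over all genes, correlations of opposite sign offset each other and genes of low count are included. It therefore does not show how closely other gene sets of like level move together. The least coordinated was Rps16 (r = 0.45), followed by Rpl6 (r = 0.87). Outside the subunits, Rps27l (0.49), Rps19bp1 (0.58) and Rpl7l1 (0.65) followed the group less closely. The median SD within groups was 0.18 on the log2 scale for these subunit genes and 0.13 for all genes.

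The common movement followed the replicate numbers. Members together took 1.54%, 1.90%, 1.59% and 1.54% of fragments in dorsal SH replicates 1, 2, 4 and 5, and 1.61%, 2.00%, 1.63%, 1.61% and 1.61% in dorsal EE replicates 1 to 5. They took 2.03%, 1.88%, 1.67% and 1.58% in ventral SH and 1.98%, 2.19%, 1.69%, 1.66% and 1.60% in ventral EE, in the same order. Replicate 2 was thus high in all 4 groups and replicate 1 was high in ventral but not in dorsal DG. Group means were 1.64% ± 0.171 (SD, n = 4) in dorsal SH, 1.69% ± 0.174 (SD, n = 5) in dorsal EE, 1.79% ± 0.205 (SD, n = 4) in ventral SH and 1.82% ± 0.250 (SD, n = 5) in ventral EE. The differences between regions within a housing, and between housings within a region, were smaller than these SDs. The left-out SH replicate 3 stood between, at 1.80% in dorsal and 1.77% in ventral DG.

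**Figure D1:**
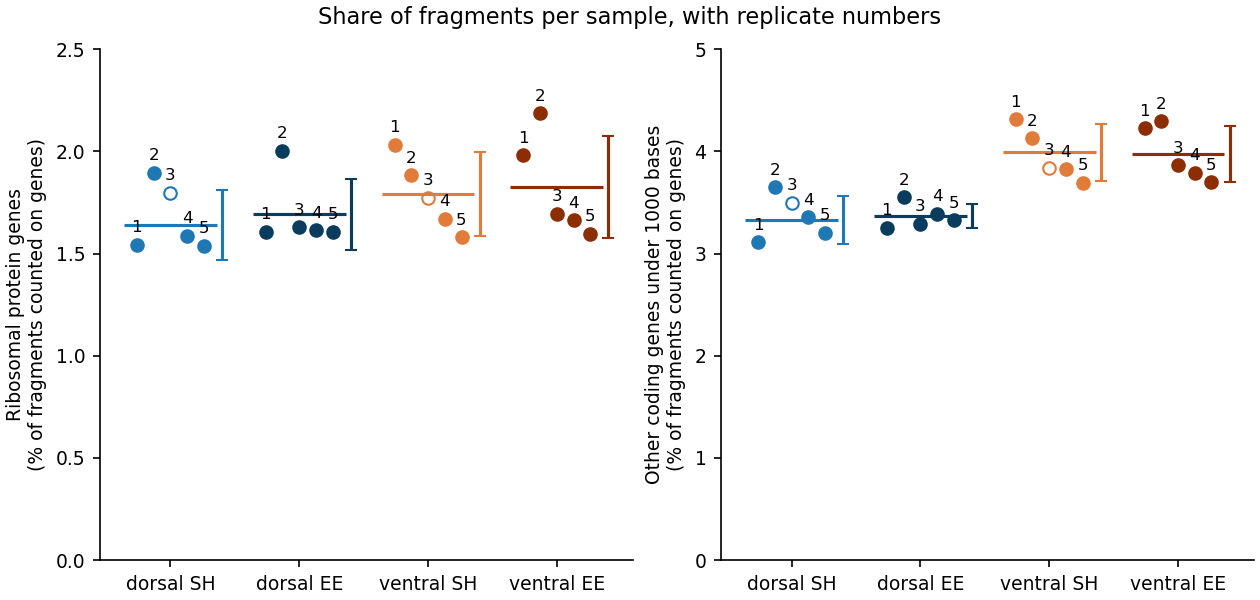
Left, percent of fragments counted on genes that fell on the 93 ribosomal protein genes, and right, on other coding genes under 1000 bases, by group. Points are samples with their replicate numbers (open, SH replicate 3, left out of means), lines are means and bars are SD of the 4 SH or 5 EE samples; on the left dorsal replicate 2 stands at 1.90% and 2.00% and ventral replicates 1 and 2 stand at 1.88% to 2.19%.

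Nearly each member took part. In ventral SH, 82 of 85 tested members had both replicate 1 and replicate 2 above the other replicates, as did 24.1% of all genes, and the 3 exceptions were Rpl24, Rps19bp1 and Rpl7l1. In ventral EE it was again 82 of 85, against 19.3% of all genes, with Rpl24, Rps27l and Rps27rt as the exceptions. In dorsal DG both replicates were above the others for 22 members in SH and 25 in EE, against 17.2% and 12.9% of all genes. There replicate 2 alone was above the replicates other than 1 and 2 for 84 members in SH and 81 in EE, and replicate 1 for 22 and 25. Over all genes these shares were 39.7% and 34% for replicate 2, and 35.9% and 27.6% for replicate 1. Taken singly in ventral DG, replicates 1 and 2 were above the others for 83 and 82 members in SH (37.8% and 35.9% of all genes) and for 83 and 84 in EE (27.6% and 32.8%). The split was named with earlier results known, so no test was made of it.

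Rpl3 shows the pattern in a gene of high count, at 597, 693, 589 and 591 CPM in dorsal SH (after TMM normalization, replicates 1, 2, 4 and 5) and 588, 707, 589.6, 571 and 582 CPM in dorsal EE (replicates 1 to 5). It reached 725, 661, 623 and 581 CPM in ventral SH and 683, 733, 598, 590.3 and 568 CPM in ventral EE. Dorsal replicate 2 and ventral replicates 1 and 2 were the highest of their groups, and the ranges of dorsal and ventral DG overlapped.

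Rps6 was at 127, 154, 126 and 128 CPM in dorsal SH and 130.3, 159.8, 133, 124 and 130.1 CPM in dorsal EE. Its ventral values were 157, 141, 127 and 119.5 CPM in ventral SH and 148, 163, 126, 131 and 124 CPM in ventral EE. Dorsal replicate 2 and ventral replicates 1 and 2 were again the highest of their groups, and Rps6 did not separate dorsal from ventral samples.

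The stalk gene Rplp0 was at 275, 360.4, 296 and 276 CPM in dorsal SH and 298, 384, 315, 304 and 306 CPM in dorsal EE. In ventral DG it was at 373, 341, 299 and 284 CPM in ventral SH and 367, 416, 297, 298 and 288 CPM in ventral EE. Replicate 2 led in both dorsal groups and in ventral EE, and replicate 1 was high in ventral DG only.

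**Figure D2:**
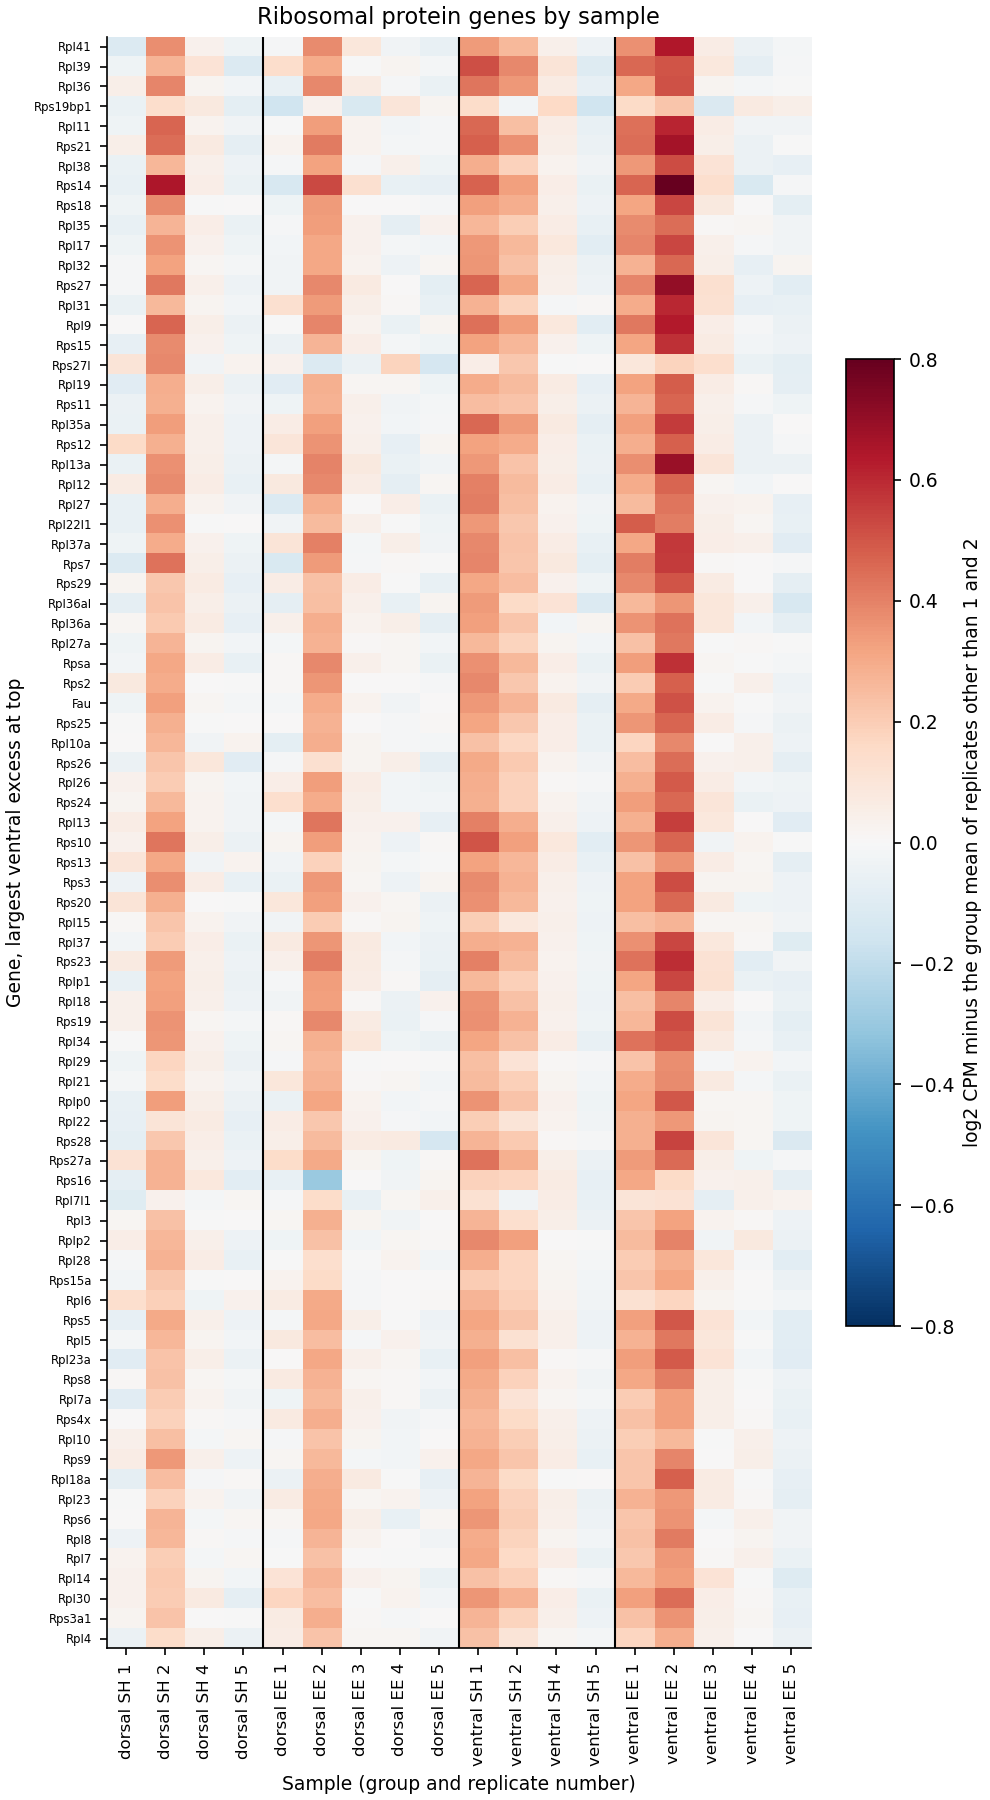
Log2 CPM of each of 81 members above 5 CPM (rows, largest ventral excess at the top) in each of 18 samples (columns), minus its group mean over the replicates other than 1 and 2. Red columns are dorsal replicate 2 and ventral replicates 1 and 2 of both housings, and Rps16 in dorsal EE replicate 2 is blue.

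Averaged over the 4 groups, replicates 1 and 2 exceeded the others by a median log2 difference of 0.24 over members. On log2(TPM + 1) as deposited the median was -0.0059, and with TPM rescaled to coding genes it was 0.20. The medians were 0.23 for large subunit genes, 0.25 for small subunit genes, 0.24 for the stalk and 0.15 for tested paralogs. The largest differences were those of Rps27rt (0.78) and Rpl9-ps6 (0.50), both of low count, then Rps14 (0.39) and Rps21 (0.36). Rps14, a small subunit protein at the platform, was at 272, 443, 294 and 274 CPM in dorsal SH and 299, 472, 357, 313 and 311 CPM in dorsal EE. Its ventral values were 445, 404, 333 and 310.2 CPM in ventral SH and 452, 588, 359, 300.1 and 324 CPM in ventral EE. The smallest differences were those of Rpl24 (-0.10, on unique counts), Rpl7l1 (0.05), Rps19bp1 (0.06) and Rps16 (0.08).

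Rps16, a small subunit protein near the decoding site, broke the pattern in 1 pool. Its dorsal values were 89.6, 114, 100.1 and 88.7 CPM in dorsal SH and 91.9, 78.1, 96.1, 94.0 and 97.5 CPM in dorsal EE, so that EE replicate 2 was the lowest of its group in the library where 81 of 85 members were high. Its ventral values were 107, 106, 98.4 and 89.7 CPM in ventral SH and 115, 103, 94.8, 94.9 and 87.9 CPM in ventral EE. Against the mean of the other subunit genes, Rps16 stood at -1.58 in dorsal and -1.37 in ventral DG of the EE replicate 2 pool on the log2 scale, and between -1.15 and -0.90 in the other 16 libraries. Expected counts gave the same low value, 548 on the rescaled scale in dorsal EE replicate 2 beside 685 to 725 in the other dorsal EE samples. The gene was singled out after its values were seen.

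Other quantities moved with the same libraries. The share of read pairs that did not map was 11.5% and 11.9% in dorsal SH and EE replicate 2 and 9.02% to 10.5% in the other dorsal samples. In ventral DG it was 11.8% to 12.3% in replicates 1 and 2 and 10.3% to 11.7% in the others. Coding genes under 1000 bases other than the members took 3.65% and 3.55% of fragments in dorsal replicate 2 and 3.11% to 3.39% in the other dorsal samples, and 4.13% to 4.31% in ventral replicates 1 and 2 beside 3.70% to 3.86% in the other ventral samples. The share of multimapping read pairs was 13.7% and 15.5% in dorsal SH and EE replicate 2, beside 10.1% to 10.6% and 11.8% to 13.7% in the other samples of these groups. It was 14.1% and 13.9% in ventral SH replicates 1 and 2 beside 11.6% and 13.1%, and 15.9% and 17.4% in ventral EE replicates 1 and 2 beside 13.1% to 13.6%.

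Among markers of other cell types, those of astrocytes (Gfap, Aqp4, Slc1a3, Aldh1l1 and Gja1) also moved with these libraries. Their summed level was 2028 CPM in dorsal SH replicate 2 beside 1760.3 to 1957 CPM in the other dorsal SH samples, and 2007 CPM in dorsal EE replicate 2 beside 1706 to 1946 CPM. It was 2141 and 2192 CPM in ventral SH replicates 1 and 2 beside 1933 and 1945 CPM, and 2183 and 2442 CPM in ventral EE replicates 1 and 2 beside 1901 to 2020.5 CPM. The difference of replicates 1 and 2 from the others was above 0 for 5 of 5 astrocyte markers, with a median of 0.12 and the highest value in Gfap (0.29). The 6 oligodendrocyte markers had a median of 0.09, with Mobp at 0.38 and Mbp at 0.31 above the median of the members and Mag at -0.02. Medians were 0.11 for fibroblast markers, close to the astrocyte value, 0.04 for microglia and 0.02 for endothelial cells. They were 0.006 for CA or mossy cells, -0.02 for oligodendrocyte precursors and -0.09 for red cells. The same difference had a median of -0.12 over the 5 granule cell markers. Their summed level was 1056 CPM in dorsal SH replicate 2 beside 1074 to 1181 CPM in the other dorsal SH samples. It was 991 CPM in dorsal EE replicate 2 beside 1009 to 1126 CPM. In ventral SH replicates 1 and 2 it was 571 and 563 CPM beside 660 and 569 CPM. In ventral EE it was 496 and 491 CPM beside 442 to 659 CPM. Choroid plexus markers were at 638 to 880.4 CPM in ventral replicates 1 and 2 and at 976 to 2154 CPM in the other ventral samples. The part of these quantities in the replicate differences was not tested.

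Dorsal and ventral DG were compared to learn which genes differ along the axis of the DG. Of the 85 members, 22 were higher in ventral and 0 in dorsal DG at FDR under 0.05 by the edgeR quasi-likelihood test, beside 29.3% and 29% of all 17040 genes. The median log2 fold change of members (dorsal minus ventral) was -0.13, with 79 of 85 below 0, and that of all genes was -0.0046, with 50.8% below 0. Beyond a fold change of 20%, with TPM over 1 in at least 3 samples, 3 members remained, Rpl41, Rpl39 and Rpl36, and 0 in dorsal DG, beside 14.5% and 13.8% of the 12201 genes past the TPM limit. The share of members called in ventral DG at FDR under 0.05 (25.9%) was thus near the background, while the calls and signs lay on one side. Because members move together from library to library, these are not 85 independent calls or signs. With the pool as a block, in which dorsal and ventral samples of the same mice are compared, 52 members were higher in ventral DG, the 22 among them, beside 31.2% of all genes, and 1 member, Rpl4, was higher in dorsal DG, beside 30.8%. Within SH alone 2 members and within EE alone 5 members were higher in ventral DG, beside 20.8% and 23.6% of all genes, and with all 20 samples 24 were, beside 30.3%. With a term for replicates 1 and 2 the count was 45, beside 31%.

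**Figure D3:**
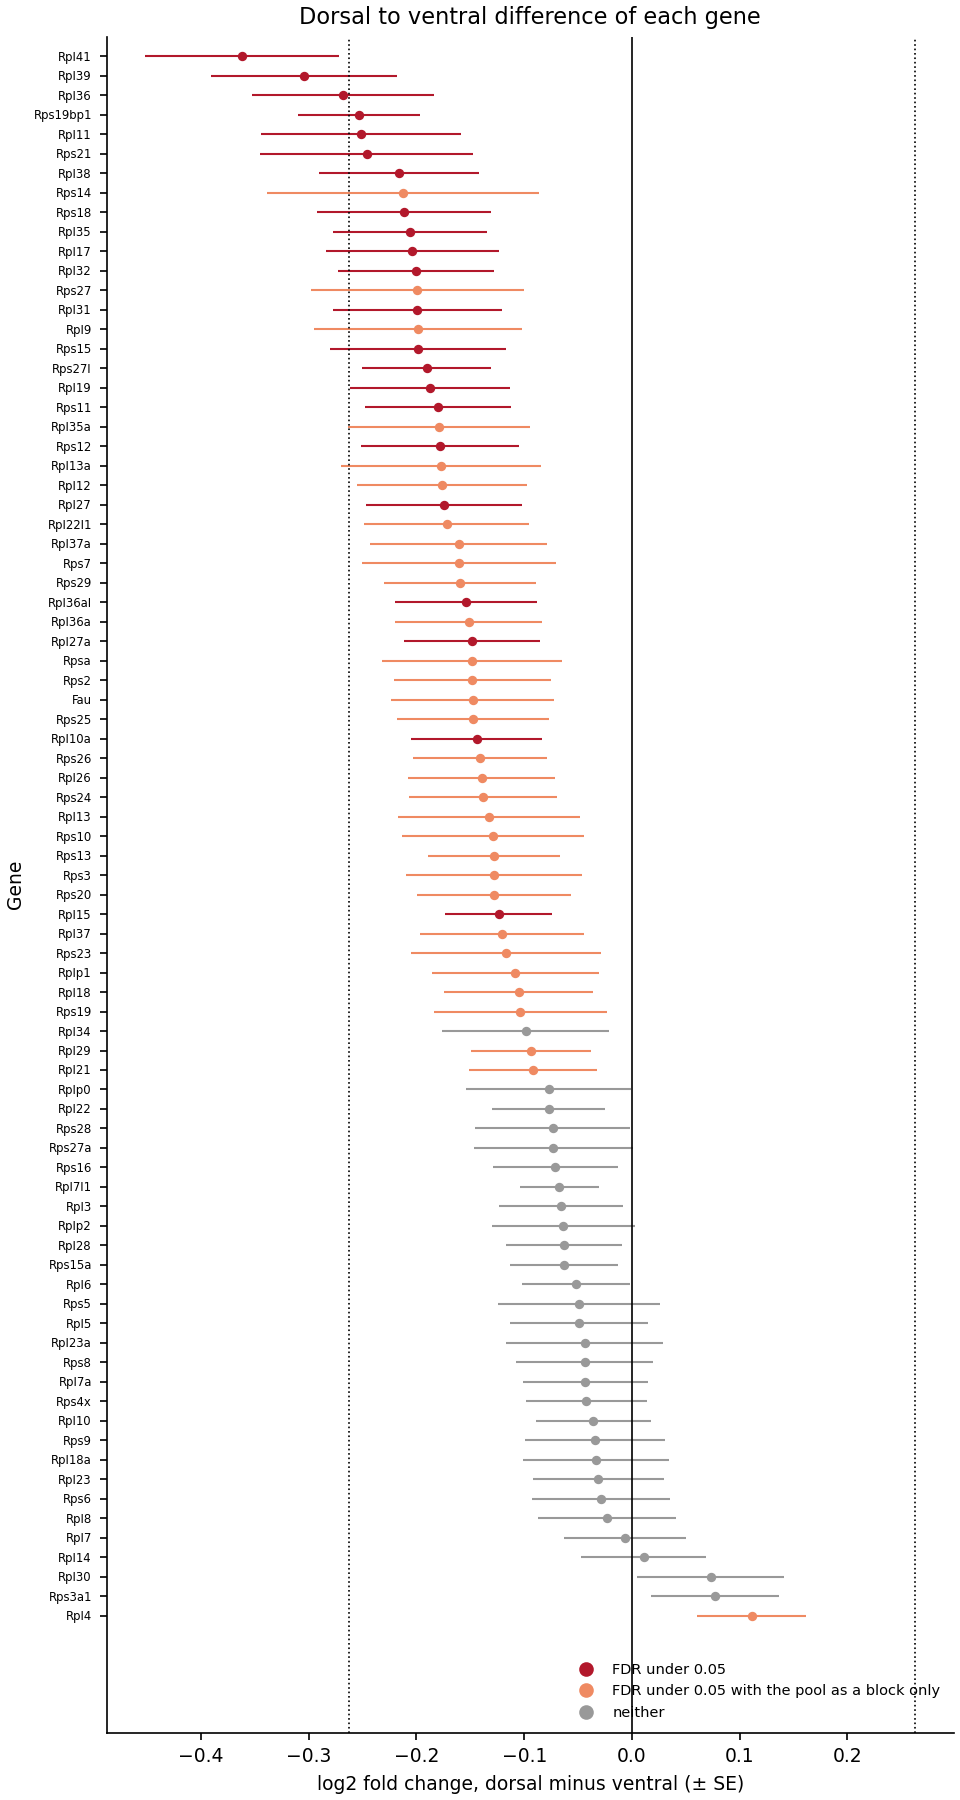
Log2 fold change of dorsal minus ventral DG with its SE for each of 81 members above 5 CPM, from the fit to 18 samples (red, FDR under 0.05; orange, only with the pool as a block; grey, neither). Dotted lines mark a fold change of 20%; Rpl41, Rpl39 and Rpl36 lie beyond it on the ventral side, and the order ends with Rpl4 on the dorsal side.

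Rpl41 had the largest ventral excess of the called members. It was at 188, 262, 207 and 198 CPM in dorsal SH and 224, 293, 240.0, 221 and 217 CPM in dorsal EE. It reached 317, 300.3, 257 and 244 CPM in ventral SH and 333, 403, 269.8, 250.01 and 256 CPM in ventral EE. Each pool had less in dorsal than in ventral DG, and the group ranges overlapped through dorsal replicate 2 alone. The log2 fold change was -0.36 (SE 0.09, edgeR FDR 0.00151).

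Rpl39, a large subunit protein of the exit tunnel, was at 80.9, 99.9, 89.2 and 76.9 CPM in dorsal SH and 87.6, 97.7, 79.2, 80.5 and 78.6 CPM in dorsal EE. Its ventral values were 128, 116, 95.7 and 83.3 CPM in ventral SH and 125, 129.5, 96.7, 87.1 and 90.6 CPM in ventral EE. Ventral replicates 1 and 2 were above all dorsal samples, while the other ventral samples lay within the dorsal range. The log2 fold change was -0.30 (SE 0.09, edgeR FDR 0.00444), and all 9 pools had less in dorsal DG.

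Rpl36, of the large subunit, was at 85.6, 108, 84.0 and 81.4 CPM in dorsal SH and 84.5, 115, 92.0, 87.2 and 84.5 CPM in dorsal EE. In ventral DG it was at 125, 118, 97.1 and 88.6 CPM in ventral SH and 123, 141, 101, 98.0 and 99.1 CPM in ventral EE. All 9 pools had less in dorsal DG, with a log2 fold change of -0.27 (SE 0.08, edgeR FDR 0.00932).

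The next called members by size of fold change were under the 20% limit. Rps19bp1 had a log2 fold change of -0.25 (SE 0.06, edgeR FDR 0.000599), Rpl11, which also binds Mdm2, of -0.25 (SE 0.09, FDR 0.0246), and Rps21 of -0.25 (SE 0.10, FDR 0.0370). Rpl38 followed at -0.22 (SE 0.07, FDR 0.0165) and Rps18 at -0.21 (SE 0.08, FDR 0.0290). The 22 called members were 14 of 43 large subunit genes, 5 of 32 small subunit genes, 0 of 3 stalk genes, 2 of 4 tested paralogs (Rps27l and Rpl36al) and Rps19bp1. Median log2 fold changes were -0.12 for the large and -0.13 for the small subunit, and -0.08 for the stalk.

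At the other end of the order, Rpl4 was at 545, 625, 581 and 545 CPM in dorsal SH and 562, 631, 545, 544 and 529 CPM in dorsal EE. Its ventral values were 586, 534, 503 and 491 CPM in ventral SH and 551, 599, 503, 490.5 and 472 CPM in ventral EE. Dorsal samples were higher in 8 of 9 pools, with a log2 fold change of 0.11 (SE 0.05) that did not pass without the block (edgeR FDR 0.0638) and passed with it (FDR 0.00831). Among the other members above 0 were Rps3a1 (0.08), Rpl30 (0.07), Rpl14 (0.01) and Rpl24 on its few unique counts, where expected counts gave -0.04 (SE 0.07, edgeR FDR 0.673). Near 0 were also Rps6 at -0.03 (SE 0.06, FDR 0.726), Rpl3 at -0.07 (SE 0.06, FDR 0.342), Rplp0 at -0.08 (SE 0.08, FDR 0.403), Rplp2 at -0.06 (SE 0.07, FDR 0.426) and Rps27a at -0.07 (SE 0.07, FDR 0.410). Rplp1 at -0.11 (edgeR FDR 0.239), Rpsa at -0.15 (FDR 0.132), Fau at -0.15 (FDR 0.0973) and Rpl22l1 at -0.17 (FDR 0.0578) did not pass without the block, and passed with it at FDR 0.0472, 0.0106, 0.00947 and 0.0117.

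Much of the regional difference of the members lay in the replicate 1 pools. The median log2 difference between dorsal and ventral samples of a pool was -0.37 in SH 1 and -0.32 in EE 1, with 84 and 83 of 85 members lower in dorsal DG. It was -0.18 in EE 2 and between -0.07 and 0.01 in the other 6 pools, and in SH 2 and EE 5 only 41 of 85 members were lower in dorsal DG. Other genes were also lowest in the replicate 1 pools. Other coding genes under 1000 bases had medians of -0.43 in SH 1 and -0.31 in EE 1, beside -0.22 to -0.10 in the other pools. Nuclear oxidative phosphorylation genes had -0.50 and -0.40, beside -0.32 to -0.16. In all 9 pools 25 members were lower in dorsal DG, beside 20.4% of all genes. Without both replicate 1 pools, a setting chosen after these values were seen, 3 members were higher in ventral DG (Rpl41, Rps19bp1 and Rps27l) beside 24.8% of all genes, and the median was -0.06. Without SH replicate 1 alone the ventral count was 4 (beside 26.2%), and without EE replicate 1 alone it was 5 (beside 27.8%). Without the 4 pools of replicates 1 and 2 the count was 21, beside 25.5% of all genes, with a median of -0.04. In this fit 4 members were higher in dorsal DG, among them Rpl30 (0.17), Rpl4 (0.16) and Rps3a1 (0.13). The dorsal share over all genes is not given for this fit. It was 29% in the fit to 18 samples. Without these pools Rps6, Rplp0 and Rplp2 were above 0, at 0.03, 0.02 and 0.04.

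**Figure D4:**
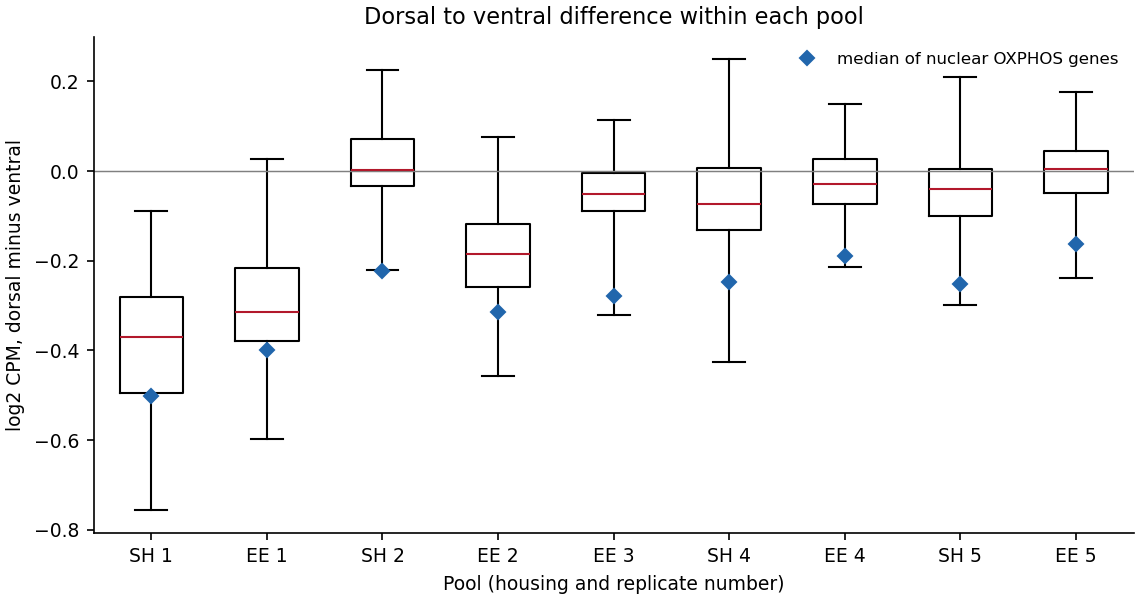
Log2 CPM of dorsal minus ventral samples of the same pool over 81 members above 5 CPM (boxes, quartiles with the median in red; whiskers, full range), and the median of 88 nuclear oxidative phosphorylation genes (diamonds). Members are lowest in dorsal DG in SH 1 and EE 1, and near 0 in 6 pools where the diamonds lie between -0.28 and -0.16.

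Choroid plexus markers, 9 of 9 of which were higher in ventral DG (beside 29.3% of all genes), had a summed level of 147 to 430.1 CPM in dorsal and 638 to 2154 CPM in ventral samples. The ventral libraries with the highest share of members were at the low end of this range, as given above. Their part in the regional difference was not tested.

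Within the members, the ventral excess was larger in shorter genes, with a Spearman correlation of 0.40 between mean transcript length and log2 fold change over 85 genes. Over 14479 other coding genes it was 0.32. These are correlations across genes, which are not independent and share the same libraries. Members under 500 bases had a median of -0.17 (16 genes) and the 91 other coding genes of that length had -0.14. Members of 500 to 750 bases had a median of -0.15 (33 genes) and the 330 other coding genes of that length had -0.23, while from 750 to 1000 bases the medians were -0.06 (22 members) and -0.20 (598 genes). The replicate difference was also larger in shorter genes, with Spearman correlations with length of -0.34 over the members and -0.24 over the other coding genes. Its medians were 0.24 in members and 0.12 in other genes of 500 to 750 bases, and 0.21 and 0.08 from 750 to 1000 bases. From 500 to 1000 bases members thus exceeded other genes of like length in the replicate difference and not in the ventral excess, in values given without a test.

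**Figure D5:**
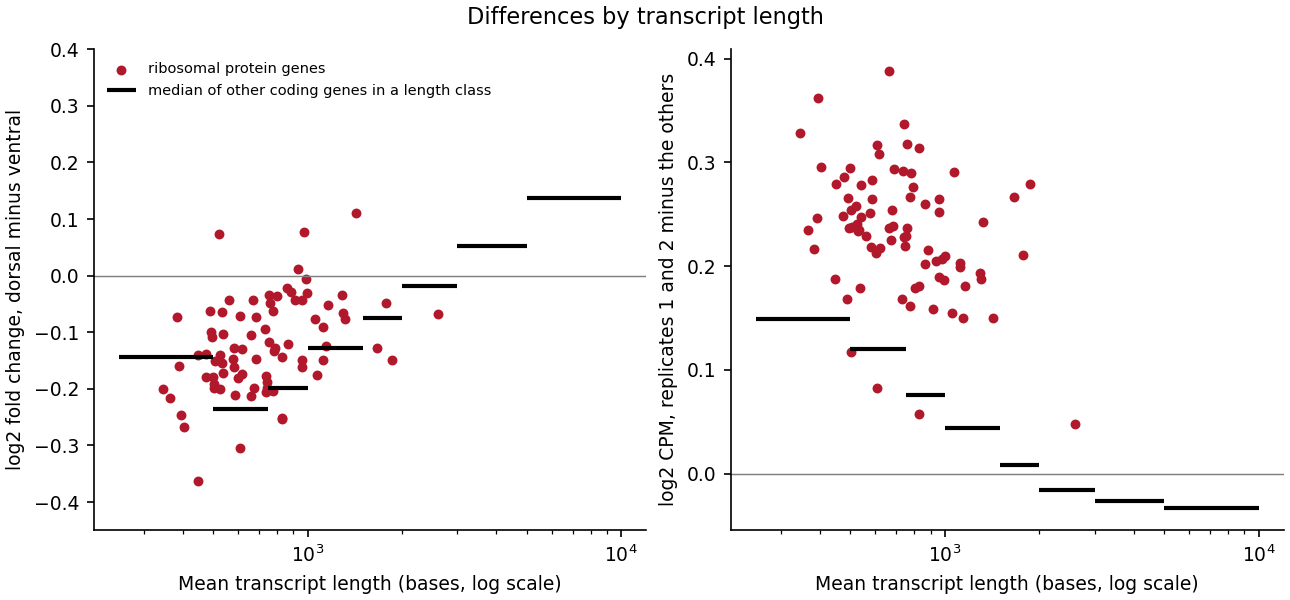
Left, log2 fold change of dorsal minus ventral DG, and right, log2 CPM of replicates 1 and 2 minus the other replicates, against mean transcript length in bases (log scale), for members above 5 CPM (red) with medians of other coding genes in length classes (black bars). From 750 to 1000 bases the member median is -0.06 and the bar -0.20 on the left, and they are 0.21 and 0.08 on the right.

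EE and SH were compared within each region to learn what enrichment changes. In dorsal DG 0 of 85 members passed FDR 0.05 in edgeR and 0 passed in DESeq2, beside 0.716% and 1.1% of all genes, and beside 0.634% in edgeR with a fold change of at least 20%. At an unadjusted p under 0.05 there was 1 member, Rps19bp1, beside 8.81% of all genes. The median log2 fold change of members was 0.04 (all genes -0.0034), and 67 of 85 were above 0 beside 48.6% of all genes. In ventral DG 0 members passed in edgeR and 0 in DESeq2, beside 0.246% and 0.511% of all genes, and 0.241% in edgeR with the 20% limit, and 0 were under an unadjusted p of 0.05 beside 7.58%. The median was again 0.04, with 70 of 85 above 0 beside 49.9% of all genes. With the replicate number as a block, 3 members rose with EE in dorsal DG, beside 1.89% of all genes, and 0 in ventral DG, beside 0.369%. At an unadjusted p under 0.05 in edgeR this block gave 29 members in dorsal and 2 in ventral DG. The share over all genes is not given for these 2 counts, so they have no background. On leaving out 1 pool the median of members ranged from -0.025 (without EE replicate 2) to 0.12 (without SH replicate 2) in dorsal DG. In ventral DG it ranged from -0.039 (without EE replicate 2) to 0.11 (without SH replicate 1) and was -0.017 without SH replicate 5, so its direction turned in both regions. Members follow the same libraries, so these are not 85 independent directions, and the medians were smaller than the median SD within groups.

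Rps19bp1 was at 10.7, 12.2, 11.7 and 10.5 CPM in dorsal SH and 11.6, 13.3, 11.9, 13.8 and 13.1 CPM in dorsal EE. Its dorsal log2 fold change of EE over SH was 0.18 (SE 0.08, edgeR FDR 0.533), and the SH and EE ranges overlapped. The next smallest p values in dorsal DG were those of Rpl22, a large subunit protein, at -0.12 (SE 0.07, edgeR FDR 0.709), and Rpl7l1 at 0.07 (SE 0.05, FDR 0.775). In ventral DG the smallest were those of Rps27rt at -0.62 (SE 0.48, edgeR FDR 0.814), Rps27l at 0.10 (SE 0.08, FDR 0.840) and Rpl28 at 0.07 (SE 0.08, FDR 0.871).

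Whether EE acted differently in the regions was tested with the interaction term. No member passed in edgeR or DESeq2 (0 of 85, beside 0.00587% of all genes), and 0 were under an unadjusted p of 0.05 beside 3.25%. The median interaction was 0.0053 on the log2 scale. The smallest p values were those of Rps19bp1 (0.21, SE 0.11), Rpl7l1 (0.10, SE 0.07) and Rps27rt (0.84, SE 0.71), each at an edgeR FDR of 1.00.

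Genes that work with the ribosome did not share one direction between regions. Of 9 translation elongation genes, 1 was higher in dorsal and 3 in ventral DG at FDR under 0.05 (edgeR), among them Eef1b2, an exchange factor, at -0.24 (SE 0.05), and Eef2k, the kinase that inhibits Eef2, at 0.28 (SE 0.04). Of 17 other TOP mRNAs 3 were higher in each region, with Naca, of the nascent chain complex, at -0.12 and Pabpc1, the poly(A) binding protein, at 0.21. Of 18 ribosome biogenesis genes, 7 were higher in dorsal DG, such as Ncl, nucleolin, at 0.26 and Ubtf, a factor of RNA polymerase I, at 0.31, and 2 in ventral DG, the short Nop10 at -0.32 and Nhp2 at -0.25. Of 15 genes of mTOR signaling and TOP control, 8 were higher in dorsal DG, among them Deptor, an mTOR inhibitor, at 0.52, Mycn at 0.41 and Rptor at 0.20, and 1 in ventral DG, Mlst8 at -0.13. Of 20 genes of eIF3 and eIF4, 6 were higher in dorsal DG, such as Eif4b at 0.28, and 2 in ventral DG. Of 5 snoRNA host genes 1 was higher in each, Snhg5 at 0.40 and Snhg12 at -0.16. The background for these counts was 29% of all genes called on the dorsal side and 29.3% on the ventral side. Some counts lay near it, such as 6 of 20 for eIF3 and eIF4 in dorsal DG and 3 of 9 for elongation in ventral DG. Others lay further off, such as 8 of 15 and 1 of 15 for mTOR signaling and TOP control. No list was tested against this background, so the counts alone do not set a list apart from other genes.

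Some of these lists also moved with replicates 1 and 2. The median difference from the other replicates was 0.20 for snoRNA hosts, 0.10 for other TOP mRNAs, with Rack1, a protein bound to the small subunit, at 0.21, and 0.08 for elongation genes, with Eef1a1 at 0.19. The other TOP mRNAs summed to 7716 CPM in dorsal SH replicate 2 beside 6696 to 6824 CPM in the rest of that group. The median was -0.07 for biogenesis genes, -0.03 for mTOR signaling and TOP control and -0.0055 for eIF3 and eIF4.

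Nuclear genes of the mitochondrion were mostly higher in ventral DG. Of 88 nuclear oxidative phosphorylation genes, 78 were higher in ventral and 0 in dorsal DG, with a median of -0.29, and of 77 mitochondrial ribosomal protein genes 56 were higher in ventral and 1 in dorsal DG, with a median of -0.19. Over all genes the shares were 29.3% in ventral and 29% in dorsal DG. The median of the oxidative phosphorylation genes was below 0 in each of the 9 pools, between -0.50 and -0.16. Their median difference between replicates 1 and 2 and the others was 0.13, and that of the mitochondrial ribosomal protein genes 0.05, beside 0.24 in the members. None of these lists of the ribosome or mitochondrion had a gene that passed for EE in either region (0 genes at FDR 0.05 in edgeR). Over all genes the shares were 0.716% in dorsal and 0.246% in ventral DG.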

How the data were processed

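Dorsal and ventral DG of SH and EE mice were profiled by RNA-Seq in 20 samples. The authors deposited, per gene and sample, STAR (2.5.1b) read counts for each strand setting and RSEM (1.2.30) expected counts with TPM, from reads trimmed with Trim Galore (0.4.0) and aligned to mm10. The count column for the second strand was used, since it held 96.2% of strand-assigned fragments, and multimapping and ambiguous fragments are not in it. Gene symbols came from Gencode M21, which matched 45968 of 46480 genes.

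Counts of 18 samples (SH replicate 3 left out) were kept for the 17040 genes above 10 counts in 2 or more samples, scaled by TMM to counts per sequencing depth (CPM) and fitted with edgeR (4.0.16) quasi-likelihood models of the 4 groups, with Benjamini-Hochberg adjustment over all genes. Region was the mean of dorsal minus ventral over both housings, EE minus SH was fitted in each region, and the difference of the EE effects was the interaction. SE was the fold change over the root of F, and values per sample used an offset of 0.5 reads on the log2 scale. DESeq2 (1.42.0), expected counts rounded to whole numbers, TPM, other filters, designs and left-out samples were alternatives. The fits were tested on simulated data. P-values measure only the spread between these pools. No 2 libraries of a group were alike within counting noise (chi-square per degree of freedom 2.83 to 36.4 over 32 pairs).

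Members and gene lists were chosen with earlier results of these data known. Genes named were the marker, stalk and fusion genes, the largest called changes (up to 8 each way) or the 3 smallest p values per comparison, paralogs, the 3 highest and lowest levels, the 4 largest and smallest replicate differences and the untested genes. The paper links dorsal and ventral samples of the same mice, but the labels give only replicate numbers. That samples of one number and housing came from the same mice was assumed, and the block for region rests on this. Deviations of such pairs correlated by -0.07 to 0.15 over all genes (mean 0.068), beside a mean of 0.105 for SH and EE samples of one number. Genes encoded by the mitochondrial genome were not analysed here. A further member enters the counts and medians but is not reported by name here, and it is not drawn in the plots of single genes.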

Additional observations from a re-analysis of the deposited data

Results flagged for a closer look

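In 15 cases a single sample stood apart from its group by a gap over the 95% limit of Dixon's test, and each was dorsal replicate 2. Chance flags about 1 in 20 groups, and members follow the same libraries, so these cases are not independent. Members took 1.90% of fragments in dorsal SH replicate 2 and 2.00% in dorsal EE replicate 2. Rpl3 was at 693 and 707 CPM in these samples, Rps6 at 154 and 159.8 CPM, Rpl36 at 108 and 115 CPM, Rpl11 at 256 and 254 CPM, and Rps18 at 237 and 247 CPM. In dorsal EE replicate 2 alone, Rplp0 was apart at 384 CPM, Rps21 at 261 CPM and Rpl38 at 177 CPM. A high sample was apart for 23 of 85 members in dorsal SH and 50 of 85 in dorsal EE, in each case replicate 2, beside 3.27% and 3.83% of all genes. In ventral DG, where replicates 1 and 2 were both high, it was 0 members in SH and 1 member in EE, beside 2.66% and 2.88% of all genes.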

How the results depend on the processing

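The count of members higher in ventral DG (22) was 38 of 91 with no count filter, 45 with a term for replicates 1 and 2, 52 with the pool as a replicate block, 6 with a joint test of both housings, 2 within SH and 5 within EE, and 3 without both replicate 1 pools. Leaving out 1 pool gave 4 to 32, with 4 without SH replicate 1, 5 without EE replicate 1 and 11 without SH replicate 4. The share of all genes higher in ventral DG was 29.3% as reported, 31% with the term and 31.2% with the block. It was 20.8% within SH, 23.6% within EE, 24.8% without both replicate 1 pools, and 26.2% and 27.8% without SH or EE replicate 1. For the other settings, the 20% limit and dorsal DG no share over all genes is given here, so those counts have no background. The count past the 20% limit (3) ranged from 1 (without SH replicate 1) to 6 (without SH replicate 2 or EE replicate 4) on leaving out a pool, with 5 without EE replicate 3, was 1 without both replicate 1 pools and 0 without the pools of replicates 1 and 2. The count higher in dorsal DG (0) was 1 with all 20 samples, with the term for replicates 1 and 2, with the block and without both replicate 1 pools, 4 without the pools of replicates 1 and 2, and 0 to 1 on leaving out a pool.

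The sources used here do not say that SH and EE samples of one number share a batch. Their deviations correlated by 0.0691 to 0.144 (mean 0.105 over 8 pairs), above 0 in each pair but not above 0.1 in each, and a shared batch was not tested. With this number as a block, 3 members rose with EE in dorsal DG (Rpl41, Rps27 and Rpl31; 1.89% of all genes) and 0 in ventral DG (0.369%). The block changed the call of no other comparison between housings.

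The summed level of members, dorsal minus ventral, was -0.11 on the log2 scale as a share of fragments (-0.14 to -0.07 on leaving out a pool), 0.062 in TPM as deposited and -0.06 in TPM rescaled to coding genes. EE minus SH in dorsal DG was 0.04 as a share of fragments and -0.21 in TPM as deposited. On TPM rescaled to coding genes the dorsal group means were 8.66% in SH and 8.86% in EE. The ranges on leaving out a pool were -0.02 to 0.11 for EE in dorsal and -0.05 to 0.09 in ventral DG. The replicate difference of 0.24 was -0.0059 in log2(TPM + 1) and 0.18 to 0.29 on leaving out a pool.

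Signs turned for Rpl24 with expected counts (-0.037), and, without both replicate 1 pools, for Rplp0 (0.016), Rplp2 (0.0041), Rps27rt (0.12) and Rps6 (0.043). Without the pools of replicates 1 and 2 they turned for Rplp0 (0.020), Rplp2 (0.037), Rps27a (0.0098), Rps6 (0.034) and, for EE in ventral DG, Rps27rt (0.41). On leaving out a pool Rps6 ranged from -0.056 to 0.024, the latter without SH replicate 1. The cause was not tested. The settings that leave out both replicate 1 pools, or the pools of replicates 1 and 2, were chosen after seeing the data. Of the other values, for single genes and for the median of members in each comparison, 644 were labelled the same. For a gene this means that sign and call were kept. For a median it means a change smaller than the median SD within groups, so that its sign could still turn, as given above for EE. A further 22 values for single genes passed only under the alternative and 31 no longer passed.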
